A study of Oryza sativa with 16 samples.

Results

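Salt-stressed seedlings of VSR156, a salt-sensitive rice variety, were compared directly with salt-stressed seedlings of CSR11, a salt-tolerant variety, to find which genes were at different levels in the varieties while both were under salt. The comparison rests on 4 of the 16 Affymetrix rice genome arrays of the series, chosen by their titles: 2 arrays of VSR156 salt and 2 of CSR11 salt, each pair marked A and B. Another 4 arrays, 2 each of VSR156 and CSR11 grown without added NaCl, gave the variety difference without salt, and the remaining 8 hold IR64 and Vandana with and without drought. Each array of a group holds RNA of pooled plants, and nothing states that A and B came from separate plants, so that p-values measure only the spread between arrays, which may be technical. The array labels give leaf tissue and 50 mM NaCl for 24 h. The study's methods give a higher NaCl dose, 2 different seedling ages and as the RNA source leaves in one passage and shoots in another, and a legend gives whole plants.

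High salt in the root medium lowers the water available to the plant and loads the shoot with sodium. Abscisic acid is the main hormone of the response. Its receptors hold back some of the protein phosphatases of the PP2C family, which frees the SnRK2 kinases. These switch on genes such as those of dehydrins and other late embryogenesis abundant (LEA) proteins. Ethylene, jasmonate, calcium sensors and heat shock factors act beside abscisic acid, and cell division in growing leaves slows.

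The 4 salt arrays differed in quality. The mean deposited intensity was 36.2 and 22.9 in VSR156 salt A and B, against 94.8 and 9.16 in CSR11 salt A and B, and without salt it was 133 and 114 in VSR156 and 46.6 and 92.2 in CSR11. Control probe sets at either end of a transcript gauge the length of the RNA behind the signal. For GAPDH the 3' signal over the 5' signal, as a log2 ratio that is larger for shorter RNA, was 7.68 and 8.16 in VSR156 salt, against 3.32 and 6.35 in CSR11 salt, and that of actin was 9.60 and 8.50 against 4.20 and 5.43. Both VSR156 salt arrays thus lay above both CSR11 salt arrays, as the VSR156 control arrays (GAPDH 4.88 and 4.61) lay above the CSR11 control arrays (3.05 and 2.05). The part of RNA length in the differences below was not tested. After normalization the replicates correlated at r = 0.969 in VSR156 salt and 0.929 in CSR11 salt across probe sets. None of 8 leaf markers passed the test between the varieties under salt (by limma or the methods' t-test, 0 of them at an unadjusted p under 0.05), and they were among the brightest genes of the arrays, for example RBCS, the small subunit of Rubisco, at 3464 and 3645 in VSR156 salt against 3327 and 3113 in CSR11 salt. At this brightness quantile normalization forces the arrays to nearly equal values: the median of the leaf markers was 0.18, but 0.48 with trimmed mean scaling and 0.68 with median scaling, under which LHCP, a chlorophyll-binding protein, was called higher in VSR156 (1.05). Of the 6 root markers fixed, 4 had a named probe set, the silicon transporters Lsi2 and NIP2-1 and the metal transporters NRAMP5 and IRT1, and these gave signal too, at 44.8 or more on all 4 salt arrays, although the labels give leaf.

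**Figure D1:**
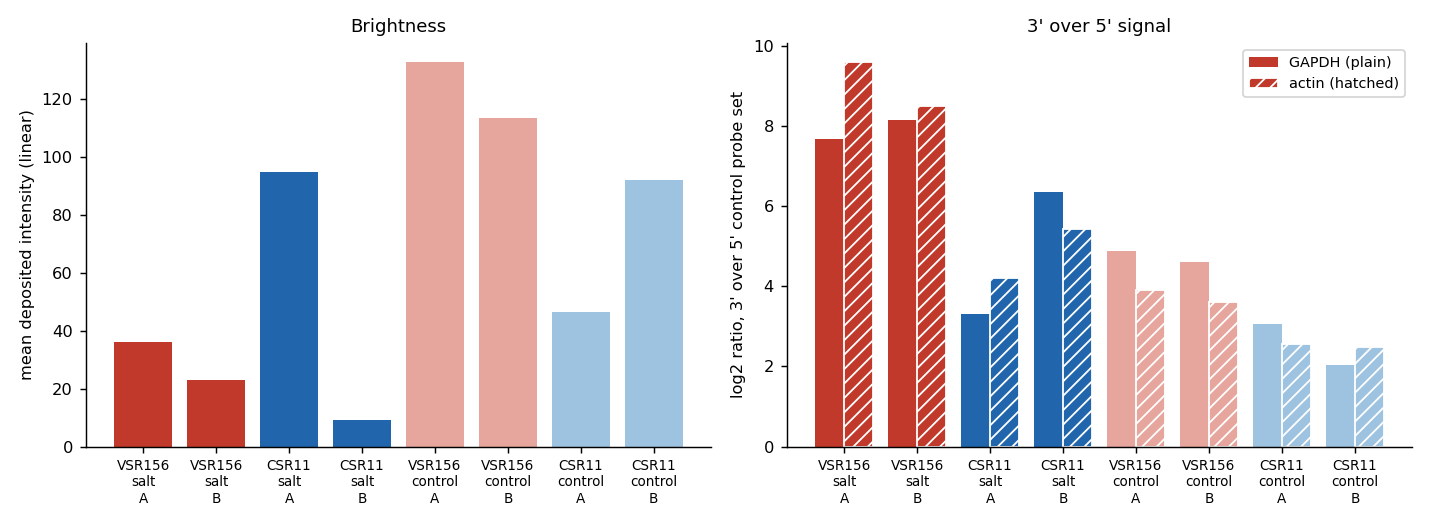
Left, the mean deposited intensity (linear) of the 8 arrays of VSR156 and CSR11, dark bars with salt and light bars without. Right, the log2 ratio of the 3' over the 5' control probe set of GAPDH (plain) and actin (hatched) on the same arrays. CSR11 salt B was the dimmest at 9.16, and VSR156 salt A and B had the highest ratios.

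Intensities were brought to a common level over the 16 arrays (quantile normalization), and differences are given as VSR156 minus CSR11 on the log2(intensity + 16) scale, which understates the change of dim probe sets. Calls needed a difference of at least 1 in size and, by limma, an adjusted p (Benjamini-Hochberg) under 0.05. Under salt 1525 probe sets were higher and 1177 lower in VSR156, in all 4.72% of the 57194 tested (2.67% higher and 2.06% lower). Without salt 1209 were higher and 1616 lower in VSR156 (4.94%, or 2.11% higher and 2.83% lower). Higher calls made up 56.4% of the calls under salt, an excess that depended on the settings: the share was 49.6% with trimmed mean scaling, 50.0% with a pseudocount of 1, 48.8% and 50.2% without CSR11 salt A and B, 68.7% when arrays were scaled to a common median and 95.7% in the 46 calls left with the values as deposited, whose median difference over all probe sets was -0.10 against -0.00 after normalization. Most differences were moderate: 1225 of the higher and 977 of the lower calls were under 2 in size. Calls depended on CSR11 salt most: 3783 higher and 3964 lower were called without array A of that group, and 1154 and 1147 without array B. A core of 775 higher and 543 lower calls was made again, in the same direction, without each of the 4 salt arrays in turn.

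Of 2457 genes with a name, taken at their brightest probe set, 123 were higher and 71 lower in VSR156 under salt (7.9%). The largest difference among them was that of ACO1, an ACC oxidase, which makes ethylene in the last step of its synthesis. ACO1 had normalized intensities of 1335 and 1401 in VSR156 salt, against 30.2 and 28.4 in CSR11 salt, a difference of 4.93 ± 0.23 (SE, adjusted p = 1.88e-07). Next came EIL1 (gene 4332697), one of the EIN3-like transcription factors that carry the ethylene signal into the nucleus, at 499.6 and 392.4 in VSR156 salt against 10.7 and 3.85 in CSR11 salt (4.32 ± 0.17, adjusted p = 5.81e-08). Both VSR156 arrays lay far above both CSR11 arrays for each of these genes. The chitinase gene Cht4 had 333 and 455 in VSR156 salt against 14.7 and 5.39 in CSR11 salt (3.98 ± 0.19, adjusted p = 2.6e-07). CML16, a calmodulin-like calcium sensor, had 1179 and 1094 against 120.4 and 24.5 (3.95 ± 0.40, adjusted p = 9.25e-05). The spread for CML16 lay in CSR11, whose bright array A and dim array B differed several-fold, whereas the VSR156 arrays were close together.

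Among genes with at least 100 on both VSR156 salt arrays, the other ones of the 12 most increased were OC-X, an oryzacystatin-type gene (3.70), PMEI8, a pectin methylesterase inhibitor (2.89), HSP18.0, a small heat shock protein (2.77), EXPB18, a beta-expansin that loosens cell walls (2.68), the glutathione S-transferase GST1 (2.66), the cytochrome P450 CYP71Z7 (2.61), the jasmonate repressor JAZ11 (2.45) and the phosphatase PP2C59 (2.44). PMEI8 was the least firm, since CSR11 salt had 387 on array A and 32.8 on array B: its difference was 4.41 without array A and 1.36 without array B of CSR11, and the call was lost without VSR156 salt A (adjusted p = 0.0619) or B (adjusted p = 0.0722). All the others of these genes were called again without each salt array. Of HSP18.0, 2 other probe sets gave differences of 0.78 (adjusted p = 0.196) and -1.06 (adjusted p = 0.00887), so that its direction depends on the probe set.

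The largest decrease in VSR156 was that of SPO11-4, a relative of the meiotic SPO11 protein that cuts DNA. It had 27.4 and 28.8 in VSR156 salt against 671 and 1067 in CSR11 salt (-4.29 ± 0.20, adjusted p = 2.3e-07). The phosphatase PP2C12 had 31.0 and 51.5 in VSR156 salt against 357 and 331 in CSR11 salt (-2.68 ± 0.23, adjusted p = 2.25e-05). NSHB1 and NSHB2, genes of non-symbiotic haemoglobins, which bind oxygen and nitric oxide, were lower in VSR156 salt. NSHB2 had 318 and 238 in VSR156 salt against 1291 and 1326 in CSR11 salt (-2.18 ± 0.23, adjusted p = 0.000134). NSHB1 had 77.5 and 32.4 against 519 and 273 (-2.55 ± 0.39, adjusted p = 0.00175), and the groups did not overlap for either gene, as for 40.8% of all probe sets. The transcription factor SPL15 had 181 and 222 in VSR156 salt against 1191 and 1175 in CSR11 salt (-2.47 ± 0.14, adjusted p = 1.21e-06). Among genes with at least 100 on both CSR11 salt arrays, the rest of the 12 most decreased were BC1L9, a COBRA-like protein of the cell wall (-2.50), ADF-11, an actin-depolymerizing factor (-2.49), the hydroxycinnamoyltransferase HCT3 (-2.37), OrysaZxb (-2.32), the pectin methylesterase inhibitor PMEI28 (-1.96), the beta-glucosidase BGLU8 (-1.93) and the chitinase gene Cht2 (-1.87). Another probe set of BC1L9 gave -0.53 and another of HCT3 -0.98, neither of them called, and 2 other probe sets of Cht2 gave 3.62 and 0.06, so that the direction for Cht2 depends on the probe set.

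**Figure D2:**
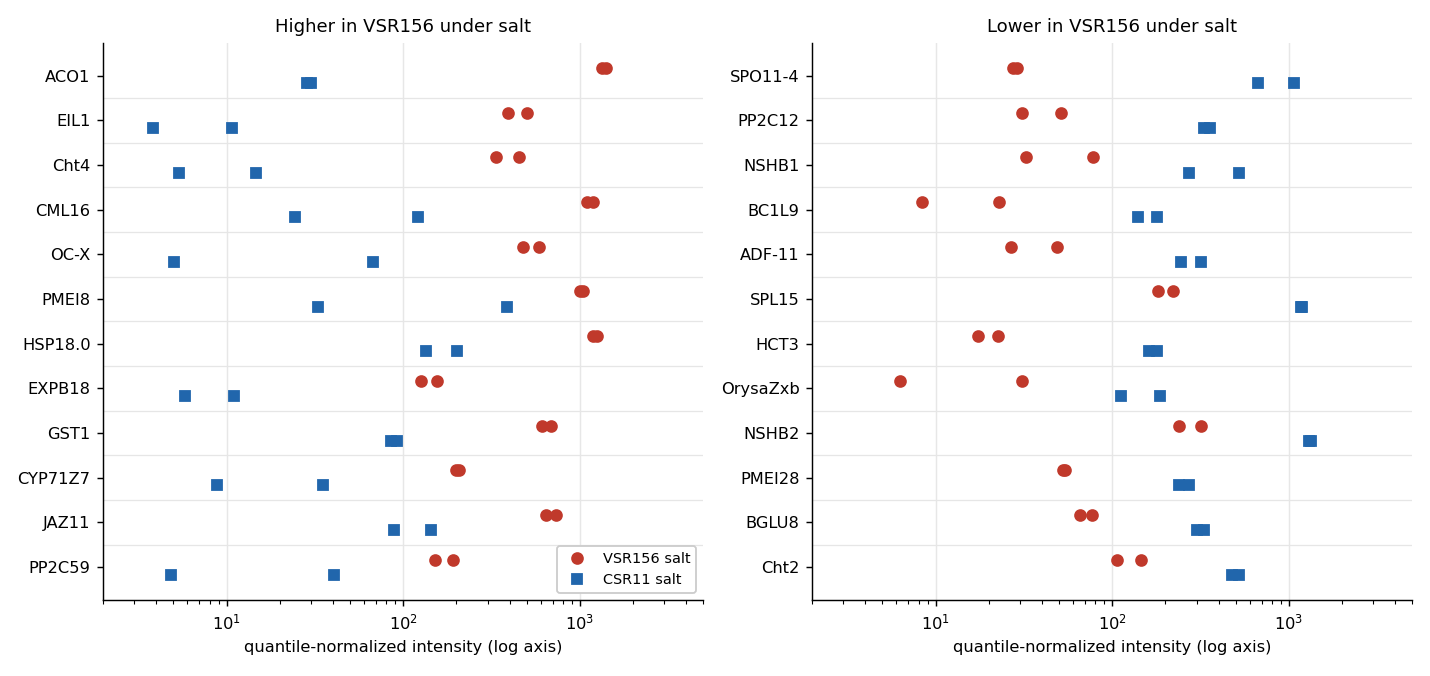
Quantile-normalized intensity (log axis) of the 12 named genes with the largest increase (left) and the 12 with the largest decrease (right) in VSR156 under salt. Each red circle is 1 VSR156 salt array and each blue square 1 CSR11 salt array. The genes were chosen for their difference, and their groups do not overlap (nor do those of 40.8% of all probe sets). The CSR11 arrays spread widest for PMEI8 (387 and 32.8) and OC-X (67.3 and 5.02).

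The same difference without salt was measured on other arrays of the varieties, which separates differences present in either condition from those seen under salt. Of the 1525 probe sets higher in VSR156 under salt, 436 (28.6%) were also called higher without salt, which is 36.1% of the 1209 higher calls without salt. Of the 1177 lower ones, 374 (31.8%) were also lower without salt, or 23.1% of the 1616 lower calls there. For 512 higher and 379 lower calls the variety difference was not called without salt and the difference of differences (difference with salt minus difference without salt) was called in the same direction as the call under salt. The difference of differences was called at the adjusted p alone, for 9.04% of all probe sets (4.39% higher and 4.65% lower). Of the 2457 genes with a name, each at its brightest probe set, it was called higher in 296 and lower in 265. In 112 higher and 25 lower calls the varieties stood the other way round without salt.

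ACO1, Cht4, NSHB1, NSHB2, PP2C12, BC1L9 and HCT3 belong to the first kind. ACO1 had 812 and 784 in VSR156 control against 3.66 and 2.38 in CSR11 control, a difference of 5.42 without salt, and the difference of differences was -0.49 (adjusted p = 0.439). Cht4 had 208 and 218 in VSR156 control against 7.73 and 9.25 in CSR11 control, with a difference of differences of 0.76 (adjusted p = 0.12). MADS56, of the MADS-box family of transcription factors, had 1.98 and 1.41 in VSR156 salt against 63.8 and 72.3 in CSR11 salt, and 0.884 and 0.569 in VSR156 control against 148 and 134 in CSR11 control. Its probe set was thus near 0 in VSR156 with and without salt. For such genes a lower level of the RNA and a VSR156 sequence that binds the probes less cannot be told apart. EIL1 differed in both conditions, but more so under salt: 2.65 without salt, with a difference of differences of 1.67 (adjusted p = 0.00181).

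**Figure D3:**
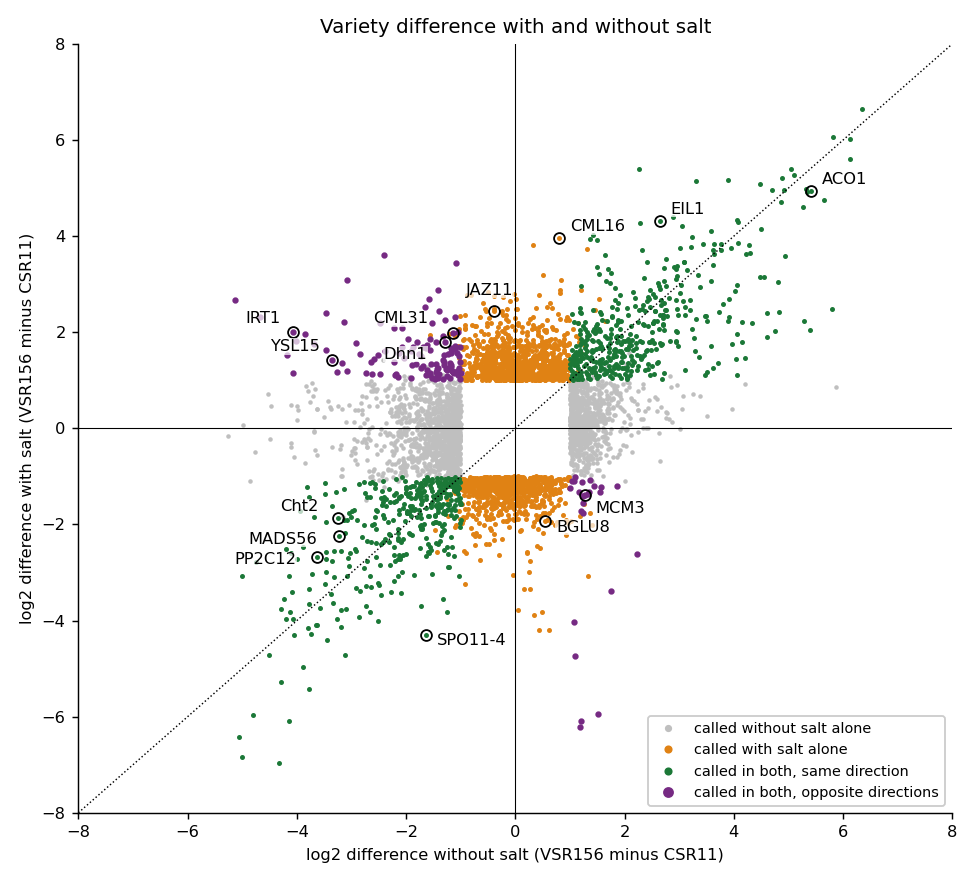
Log2 difference VSR156 minus CSR11 without salt (x axis) and with salt (y axis) for the 4580 probe sets called in at least 1 of the conditions. Colours mark in which condition a probe set was called, the dotted line marks equal differences, and open circles mark named genes. ACO1 (5.42 without and 4.93 with salt) lies near the line, CML16 (0.80 and 3.95) lies near the vertical axis, and IRT1 (-4.08 and 2.0) lies where the direction turns.

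In the list of abscisic acid genes and PP2C phosphatases 6 of 71 were higher and 1 lower in VSR156 under salt. The median difference was 0.08, against -0.00 over all probe sets, of which 2.67% were higher and 2.06% lower. In all 9.86% of the list were called, beside 7.9% of the genes with a name. All 7 are among the 55 PP2C phosphatases that make up most of the list. The phosphatases were matched by symbol, and which of them act in abscisic acid signalling was not determined. PP2C30 had 457 and 489 in VSR156 salt against 76.4 and 93.7 in CSR11 salt (2.28 ± 0.27, adjusted p = 0.000282), whereas it had 33.6 and 33.4 in VSR156 control against 39.6 and 14.0 in CSR11 control. The VSR156 salt arrays thus stood apart from the other 3 groups. PP2C59 had 192 and 151 in VSR156 salt against 40.6 and 4.82 in CSR11 salt, and the difference of differences was called for both (2.0 for PP2C30 and 2.97 for PP2C59). PP2C47 was higher in VSR156 with and without salt (1.79 and 2.09), although another of its probe sets gave -0.10 under salt (adjusted p = 0.833). PP2C08, PP2C09 and PP2C34, the other higher genes, were chosen after their values were seen and gave 1.59, 1.58 and 1.14. PP2C09 was not called without VSR156 salt B (adjusted p = 0.243) or CSR11 salt B (0.67). Of the 10 SnRK2 kinases (SAPK in rice), 1 receptor, 1 enzyme that makes the hormone, 2 that break it down and 2 bZIP factors, limma called none, with 2, 0, 1, 1 and 2 of them at an unadjusted p under 0.05 (1, 0, 0, 1 and 0 by the methods' t-test).

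Among the targets of abscisic acid signalling, 3 of 8 dehydrin and LEA genes were higher in VSR156 under salt and none was lower. Beside them, 2.67% of all probe sets and 123 of the 2457 genes with a name were higher. Dhn1, a dehydrin, had 1372 and 1261 in VSR156 salt against 388 and 351 in CSR11 salt (1.79 ± 0.10, adjusted p = 7.69e-07). Without salt it stood the other way round, at 185 and 194 in VSR156 control against 503 and 470.4 in CSR11 control (-1.29), and the difference of differences was 3.08 (adjusted p = 7.61e-07). The values in CSR11 were thus near each other with and without salt, whereas those in VSR156 were several-fold apart. EM, a LEA protein, had 175 and 157 in VSR156 salt against 46.4 and 9.23 in CSR11 salt (2.20 ± 0.30, adjusted p = 0.000844) and was at 10.8 to 13.9 on the control arrays of both varieties. The dehydrin gene rab25 was dimmer, at 38.7 and 60.6 in VSR156 salt against 6.47 and 1.64 in CSR11 salt (1.70 ± 0.17, adjusted p = 0.000101). Under salt 4 of the 8 genes had a negative difference, the lowest -0.82, and none of these was called. The genes below are only some of the remaining ones. RAB21, RAB16B and LEA19, chosen after their values were seen, were lower in VSR156 without salt (-2.67, -3.69 and -3.76) and gave -0.00, -0.06 and 0.54 under salt. For the list the median was 0.27 under salt (0.74 with trimmed mean and 0.89 with median scaling) and -1.69 without salt. The difference of differences was called higher in 7 of the 8 genes, beside 4.39% of all probe sets and 296 of the 2457 genes with a name. Of Dhn1, 2 dim probe sets gave 0.01 and 0.02 under salt.

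Calcium sensors were represented by 77 genes of the calmodulin-like, calcineurin B-like and kinase families, of which 3 were higher and 1 lower in VSR156 under salt (median 0.13). These calls made up 5.19% of the list, beside 7.9% of the genes with a name. Besides CML16, CML31 had 799 and 707 in VSR156 salt against 158 and 197 in CSR11 salt (2.0 ± 0.16, adjusted p = 1.84e-05), and without salt 44.5 and 53.0 in VSR156 against 119.8 and 134 in CSR11 (-1.15). The direction therefore turned, with a difference of differences of 3.14 (adjusted p = 1.89e-05). CML15 gave 1.32 and CML1 -1.18. CML15 fell short of a difference of 1 without CSR11 salt B (0.90), and CML1 was not called without VSR156 salt A (adjusted p = 0.0849), VSR156 salt B (0.0653) or CSR11 salt B (0.0973). None of 15 MAP kinase genes was called by limma (2 had an unadjusted p under 0.05, and 0 by the methods' t-test), and the brightest, MPK14, gave -0.13.

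Of the transcription factor lists, homeodomain factors had 2 of 26 genes higher, the DREB, ERF and NAC factors 1 of 20, bZIP factors 1 of 22, MYB factors 1 of 10 lower and WRKY factors 0 of 6. In this order 7.69%, 5%, 4.55%, 10% and 0% were called, beside 7.9% of the genes with a name. HOX24, of the homeodomain-leucine zipper family, had 90.9 and 84.8 in VSR156 salt against 21.1 and 21.5 in CSR11 salt (1.48 ± 0.12, adjusted p = 1.42e-05) and 8.71 and 5.05 in VSR156 control against 15.2 and 12.1 in CSR11 control. NAC048, a stress-responsive NAC factor, had 821 and 874 against 398 and 369.5 (1.11 ± 0.18, adjusted p = 0.00296), with 273 and 253 in VSR156 control against 635 and 389 in CSR11 control. Both factors were higher in VSR156 with salt. Without salt they lay lower in VSR156, but these differences were not called (-0.38, adjusted p = 0.0681, for HOX24 and -0.88, under 1 in size, for NAC048). The difference of differences was 1.85 for HOX24 and 1.99 for NAC048. Another 2 dim probe sets of NAC048 gave 0.12 and -0.25 and were not called. TGAL4, a bZIP factor of the TGA type, gave 1.29 under salt against -1.68 without, but it was not called without VSR156 salt B (0.67) or CSR11 salt B (adjusted p = 0.119). HOX1 (1.06) was lost in 3 of the 4 fits with an array left out: it gave 0.65 without CSR11 salt B, and its adjusted p was 0.052 without VSR156 salt A and 0.0517 without VSR156 salt B. GAMYB, a MYB factor of the gibberellin response (-1.33), was lost without VSR156 salt B (-0.91) or CSR11 salt A (-0.83). Of the WRKY factors 1 had an unadjusted p under 0.05 by limma and 0 by the methods' t-test, and the brightest gene, wrky38, gave 0.74 (adjusted p = 0.0766) under salt and -1.59 without.

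Hormone genes other than those of abscisic acid and auxin held 11 higher and 2 lower of 75 (median 0.21), or 17.3%, beside 4.72% of all probe sets and 7.9% of the genes with a name. Besides the ethylene genes ACO1 and EIL1, the higher genes were 5 of the jasmonate pathway and, chosen after their values were seen, LOG (1.34) and RR9 (1.18) of cytokinin and KO1 (gene 4341343, 1.72) and GA20OX2 (1.17) of gibberellin. A second KO1 (gene 4341347) was lower (-1.30). JAZ11, one of the JAZ proteins that repress jasmonate responses, had 733 and 642 in VSR156 salt against 143 and 88.1 in CSR11 salt (2.45 ± 0.20, adjusted p = 1.56e-05) and lay between 64.6 and 112 on the control arrays. LOX2.1, a lipoxygenase, had 68.9 and 189 in VSR156 salt against 21.6 and 20.6 in CSR11 salt (1.83 ± 0.31, adjusted p = 0.00347). Its 2 VSR156 salt arrays differed widely but both lay above the CSR11 arrays. AOS4, an allene oxide synthase gene chosen after its values were seen, was higher in VSR156 with salt (1.17) and lower without (-3.27), with a difference of differences of 4.45. The JAZ genes did not all run one way, since JAZ3 and JAZ9 gave 1.02 and 1.01 and JAZ4 -1.10 (all chosen after their values were seen). JAZ9 was called only with all arrays or without CSR11 salt A, and gave 0.45 without CSR11 salt B, with adjusted p = 0.100 and 0.105 without VSR156 salt A and B. Without VSR156 salt A, JAZ3 (0.92) and GA20OX2 (0.85) fell under 1, and without VSR156 salt B the calls of JAZ4 (-0.80), RR9 (adjusted p = 0.0990) and the lower KO1 (adjusted p = 0.0621) were lost. Without CSR11 salt A, AOS4 gave 0.89, and without CSR11 salt B, JAZ3 gave 0.94 and RR9 0.62. Over the list the difference of differences was called higher in 19 genes and lower in 1, beside 296 and 265 of the 2457 genes with a name. Auxin genes held 2 higher of 58 (3.45%, beside 7.9% of the genes with a name), IAA2 and GH3.1. IAA2, an Aux/IAA repressor, had 447 and 379.7 in VSR156 salt against 135 and 48.4 in CSR11 salt (2.12 ± 0.30, adjusted p = 0.00117), and 276 and 372 in VSR156 control against 399.9 and 407 in CSR11 control, so that it was the CSR11 salt arrays that lay below the other groups. GH3.1, which conjugates auxin to amino acids (1.48), was lost in 3 of the 4 fits with an array left out: its adjusted p was 0.157 without VSR156 salt A and 0.0817 without VSR156 salt B, and its difference was 0.63 without CSR11 salt B.

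Heat shock factors, which switch on chaperone genes, held 3 higher of 20 (median 0.41), and heat shock proteins 2 higher and 3 lower of 25 (median 0.07). Called were 15% and 20% of these lists, beside 7.9% of the genes with a name. HSFC1B had 80.4 and 83 in VSR156 salt against 18.2 and 11.4 in CSR11 salt (1.68 ± 0.19, adjusted p = 0.000258) and 14.2 and 17.9 in VSR156 control against 40.3 and 20.4 in CSR11 control. It was the only factor of the 3 that was called without each salt array. HSFB1 gave 0.69 without CSR11 salt B and was not called without VSR156 salt A or B (adjusted p = 0.0733 and 0.12), and HSFA4D gave 0.95 without VSR156 salt B and 0.86 without CSR11 salt A. Among small heat shock proteins HSP18.0, whose probe sets disagree as given above, was the only one called higher. It had 1186 and 1248 in VSR156 salt against 202 and 134 in CSR11 salt, whereas HSP16.9A had 273 and 168 in VSR156 salt against 735 and 729.7 in CSR11 salt (-1.70 ± 0.24, adjusted p = 0.00107). The variety difference of HSP16.9A without salt was -1.86, and its difference of differences was 0.16 (adjusted p = 0.846). HSP16.0 was near 1 on all 4 VSR156 arrays, with salt and without, and had 57.9 and 12.7 in CSR11 salt (-1.43); its call was lost without VSR156 salt B (adjusted p = 0.0628) and without CSR11 salt A (-0.75). HSP17.4, chosen after its values were seen, was the other lower one (-1.34). CLPB1, a disaggregase (1.53), was lost without VSR156 salt A (adjusted p = 0.119), VSR156 salt B (adjusted p = 0.152) or CSR11 salt B (0.55).

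Among genes of detoxification and redox control, 2 of 6 glutathione S-transferases were higher and 1 lower (50%, beside 7.9% of the genes with a name). GST1 had 687 and 613 in VSR156 salt against 92.1 and 85.7 in CSR11 salt, GSTZ5 529.6 and 466 against 231 and 161, and GST-I 12.2 and 11.5 against 66.5 and 41.0. Their differences were 2.66, 1.30 and -1.30, and the GST1 probe set can also bind related transcripts. Among called genes this limit also holds for PP2C12, NSHB1, PP2C47, Pi21, GRXS2, AMY1.4, GLUA-1, GAMYB and PROLM25. Of 49 antioxidant and thiol genes 3 were higher and 1 lower (8.16%, near the 7.9% of the genes with a name, median 0.05). TRXH, an h-type thioredoxin, was bright, at 1505 and 1424 in VSR156 salt against 3020.2 and 3045 in CSR11 salt (-1.04 ± 0.11, adjusted p = 0.000128), and differed by -1.03 without salt. Another of its probe sets, a dim one, gave -0.21 (adjusted p = 0.658). The glutaredoxin GRXC10 was higher in VSR156 in both conditions (1.64 and 1.40). GRXS2, another glutaredoxin, was higher with salt (1.06) and lower without (-1.52), and fell under 1 without VSR156 salt B (0.89) or CSR11 salt B (0.83). APX5, an ascorbate peroxidase (1.26), fell under 1 without VSR156 salt B (0.88). Of 18 chitinases and pathogenesis-related proteins 2 were higher and 1 lower (16.7%, beside 7.9% of the genes with a name). PBZ1, a pathogenesis-related protein of the PR10 family, had 1551 and 1612 in VSR156 salt against 624 and 329 in CSR11 salt (1.77 ± 0.24, adjusted p = 0.000872), and 623 and 571 in VSR156 control against 864 and 1116 in CSR11 control.

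**Figure D4:**
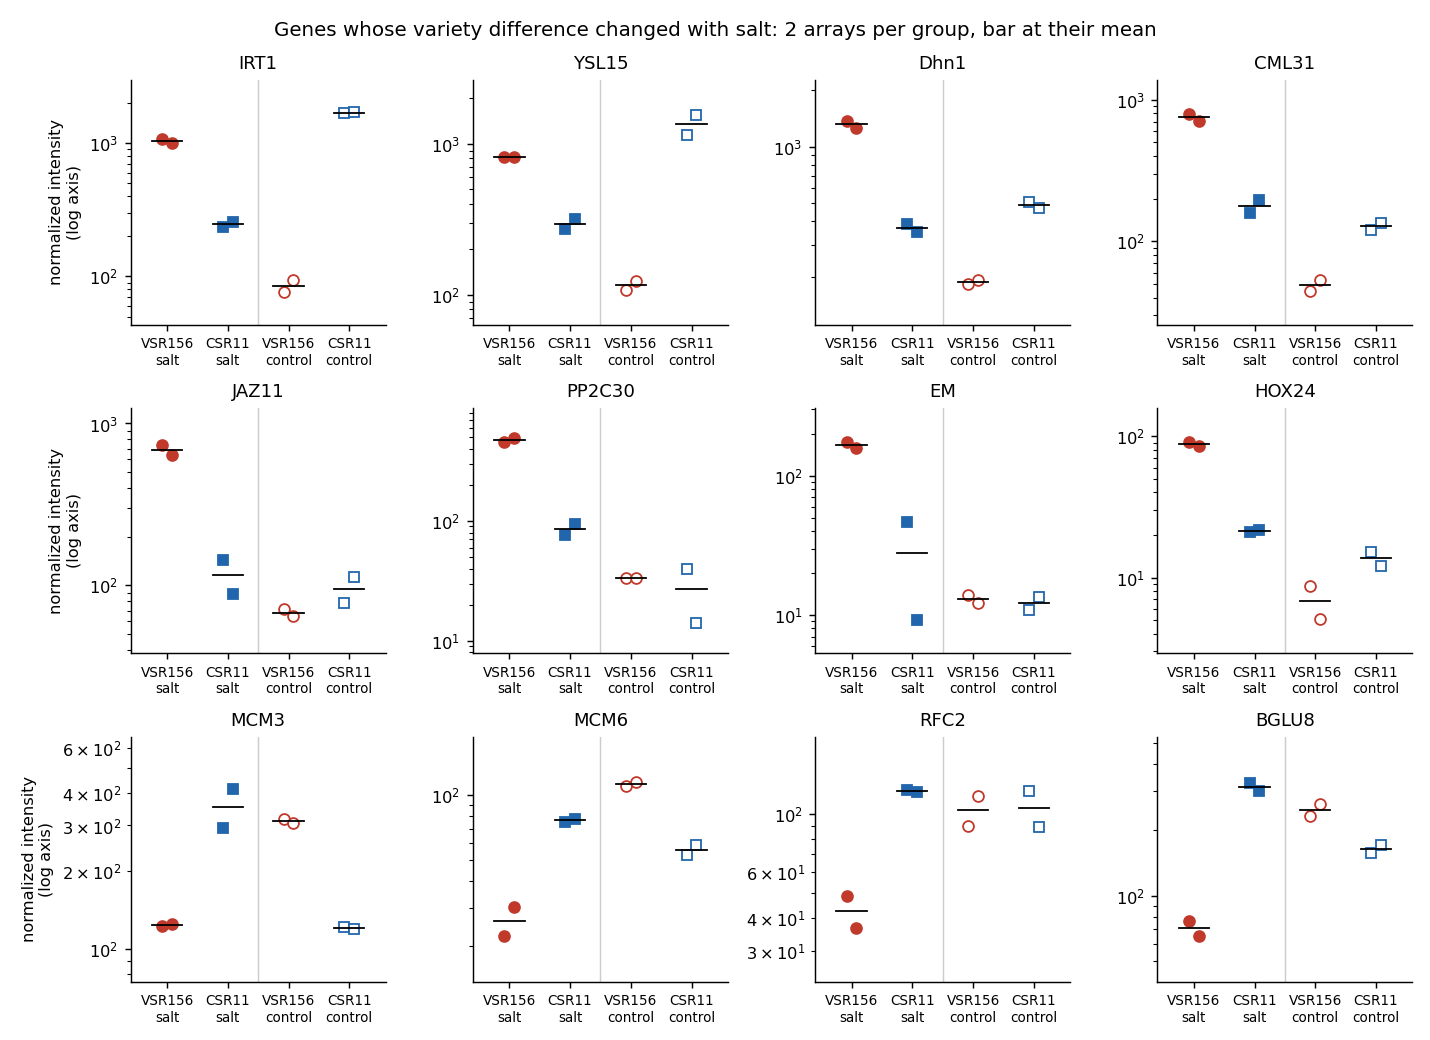
Quantile-normalized intensity (log axis, own range in each panel) of 12 genes in VSR156 salt, CSR11 salt, VSR156 control and CSR11 control. Points are single arrays, 2 per group, and the bar is their mean. In IRT1, YSL15, Dhn1, CML31 and HOX24 VSR156 lies above CSR11 with salt and below it without, and in MCM3, MCM6 and BGLU8 the order is the opposite. The differences without salt of HOX24 (-0.38), MCM6 (0.84) and BGLU8 (0.55) were not called.

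Few aquaporins and potassium and sodium transport genes were called under salt. None of 24 aquaporin genes was called by limma (5 had an unadjusted p under 0.05, and 2 by the methods' t-test), and of 26 potassium and sodium transporters and channels HAK2, a potassium transporter, was the only one called. These shares, 0% and 3.85%, stand beside 7.9% of the genes with a name. Whatever the size of the difference, 6 of these 26 had an adjusted p under 0.05 by limma. The difference of differences was called higher in 7 aquaporins and in 6 of the 26, and lower in none. Beside them it was called higher in 296 and lower in 265 of the 2457 genes with a name. The brightest aquaporins, PIP1-2 and TIP1-1, gave 0.12 ± 0.14 and 0.04 ± 0.12, but 0.52 and 0.54 with median scaling. HAK2 had 55.5 and 88.7 in VSR156 salt against 182 and 144 in CSR11 salt (-1.04 ± 0.18, adjusted p = 0.00332), and the difference fell under 1 in size without VSR156 salt A (-0.77) or CSR11 salt A (-0.89). Among 9 genes of compatible solutes and polyamines 1 was called (11.1%, beside 7.9% of the genes with a name). This was ADC2, an arginine decarboxylase, which was lower (-1.20) at low intensity. It had 3.64 and 10.6 in VSR156 salt against 35.4 and 37.7 in CSR11 salt, and gave -0.98 without VSR156 salt A.

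Iron and metal transport genes differed between the varieties mainly without salt. Of 47 genes 2 were higher and 2 lower in VSR156 under salt (8.51%, near the 7.9% of the genes with a name, median 0.12). Without salt 1 was higher and 13 were lower (median -0.46), beside 92 higher and 191 lower of the 2457 genes with a name. The difference of differences was called higher in 18 and lower in none, beside 296 and 265 of the 2457 genes with a name. In both higher genes, IRT1 and YSL15, the direction turned. IRT1, the iron transporter of the root surface, had 1063 and 994 in VSR156 salt against 236 and 255 in CSR11 salt (2.0 ± 0.20, adjusted p = 8.25e-05). Without salt it had 76.1 and 93.8 in VSR156 against 1666 and 1699.8 in CSR11 (-4.08), and the difference of differences was 6.08 (adjusted p = 7.74e-07). YSL15, which takes up iron bound to phytosiderophores, had 814 and 821 in VSR156 salt against 272 and 319 in CSR11 salt (1.42 ± 0.18, adjusted p = 0.000438), and 108 and 123 in VSR156 control against 1136 and 1552 in CSR11 control. The ranks of the 4 groups were the same for both genes: CSR11 control highest, then VSR156 salt, CSR11 salt and VSR156 control. The metal transporter Nramp1 was lower in VSR156 in both conditions (-1.71 and -1.98), with -1.10 without VSR156 salt B. NRAMP6 gave -1.26, and -0.99 without CSR11 salt B.

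The root markers, which share IRT1 and NRAMP5 with the iron list, also differed between the varieties. Their summed intensity was 2146 and 2165 in VSR156 salt against 1147 and 1353 in CSR11 salt, and 274 and 293 in VSR156 control against 4061 and 3813 in CSR11 control. Without IRT1 the sum was 1083 and 1171 in VSR156 salt against 912 and 1097 in CSR11 salt, and 198 and 199 in VSR156 control against 2395 and 2114 in CSR11 control. Without salt all 4 were lower in VSR156 (median -3.66), beside 191 of the 2457 genes with a name. With salt IRT1 alone was called (median 0.69). NIP2-1 had 606 and 683 in VSR156 salt against 603 and 761 in CSR11 salt, and 109 and 109.7 in VSR156 control against 1739.7 and 1461 in CSR11 control. Lsi2 had 338 and 329.9 in VSR156 salt against 209 and 291 in CSR11 salt, and 17.4 and 14.6 in VSR156 control against 367 and 393 in CSR11 control. NRAMP5 gave 0.98 under salt and -1.70 without. The groups under salt overlapped for NIP2-1 and lay close together for Lsi2, so that the varieties differed in these markers mainly without salt. The part of root RNA in the differences, and above all in the differences of differences, was not tested.

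In nitrogen and phosphate uptake 4 of 36 genes were higher and none lower (11.1%, beside 7.9% of the genes with a name, median 0.30). They were PHR3, a factor of the phosphate starvation response (1.81), the ammonium transporters AMT2-2 (1.20) and AMT1-2 (1.04) and the glutamine synthetase GLN1-3 (1.01). AMT1-2 had 138 and 165 in VSR156 salt against 87.3 and 47.3 in CSR11 salt, and 15.1 and 14.2 in VSR156 control against 101 and 96.0 in CSR11 control, the same turn as in the iron genes. AMT1-2 fell under 1 without VSR156 salt B (0.93) or CSR11 salt B (0.69), PHR3 gave 1.05 without CSR11 salt B, and GLN1-3 was called only with all arrays or without CSR11 salt A (adjusted p = 0.0716 without VSR156 salt A, and differences of 0.87 without VSR156 salt B and 0.55 without CSR11 salt B).

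Replication and cell cycle genes lay mostly below CSR11 under salt. Of 68 genes 1 was higher and 5 lower (8.82%, near the 7.9% of the genes with a name). Of the differences 46 were negative, and the median was -0.30, against -0.00 over all probe sets. Without salt 7 were higher in VSR156 and none lower (median 0.35), beside 92 higher and 191 lower of the 2457 genes with a name. The difference of differences was called lower in 24 genes and higher in 1. Of the 2457 genes with a name it was called lower in 265 and higher in 296. MCM3, a subunit of the helicase that opens the DNA at replication forks, had 122 and 124 in VSR156 salt against 293 and 415 in CSR11 salt (-1.39 ± 0.15, adjusted p = 0.000173), and 318 and 308 in VSR156 control against 121 and 119 in CSR11 control. VSR156 with salt was thus at the level of CSR11 without it. MCM6 of the same helicase had 22.1 and 30.1 in VSR156 salt against 75 and 77.8 in CSR11 salt, and 111 and 115 in VSR156 control against 53.0 and 58.6 in CSR11 control. RFC2, of the clamp loader, had 48.7 and 36.6 in VSR156 salt against 123 and 121 in CSR11 salt and gave -0.02 without salt. The cyclin CYCA2-1 gave -1.31, and -0.92 without VSR156 salt A. The fifth was RPA2A, of the single-strand binding protein (-1.10), and the higher gene the cyclin CYCD5-3 (1.06), both chosen after their values were seen. RPA2A gave -0.85 without VSR156 salt B, and CYCD5-3 0.99 without VSR156 salt A and 0.57 without CSR11 salt B.

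Of 63 cell wall genes 2 were higher and 3 lower (7.94%, near the 7.9% of the genes with a name). The higher ones were the beta-expansins EXPB18 and EXPB6. EXPB18 had 126 and 155 in VSR156 salt against 10.9 and 5.83 in CSR11 salt and at most 8.77 on the 4 control arrays, and EXPB6 had 627 and 764 against 325 and 282 (1.15 ± 0.18, adjusted p = 0.00232). CSLC9, a cellulose synthase-like gene, was lower (-1.14), with -0.84 without VSR156 salt B and -0.93 without CSR11 salt B. EXPL3, an expansin-like gene chosen after its values were seen, gave -1.02, with -0.95 without VSR156 salt B and -0.79 without CSR11 salt B. Of 53 sugar and starch genes SWEET14, a sugar exporter, was higher with and without salt (1.33 and 1.11), and the amylase gene AMY1.4 was lower (-1.39), a call that was lost without VSR156 salt B (-0.67) or CSR11 salt B (adjusted p = 0.164). The sugar and starch calls made up 3.77% of their list, beside 7.9% of the genes with a name. In the flowering and clock list 2 of 45 were higher and 2 lower (8.89%, near that 7.9%). Lower were MADS56, given above, and MADS2, a floral organ factor (-2.24). MADS18 (1.14, and 0.64 without CSR11 salt B) and the clock gene PRR95 (1.05, and 0.60 without CSR11 salt B) were higher. MADS18 and PRR95 were also not called without VSR156 salt B (adjusted p = 0.0844 and 0.0657).

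Seed storage genes, fixed as markers of seed tissue, were mostly low, and 3 of 11 were lower in VSR156 under salt and none higher (median -0.29). Beside them, 2.06% of all probe sets and 71 of the 2457 genes with a name were lower. The prolamin PROLM25 had 150.0 and 105 in VSR156 salt against 359.9 and 510.5 in CSR11 salt (-1.65 ± 0.21, adjusted p = 0.00056), and 8.76 and 10.5 in VSR156 control against 29.8 and 53.3 in CSR11 control. The glutelins GLUA-1 and GLUB-5 gave -1.85 and -1.52, with 67.2 and 50.1 for GLUA-1 in CSR11 salt and at most 11.2 in the other 3 groups. Summed over the list, seed markers had 921 and 842 in VSR156 salt against 1539 and 1319 in CSR11 salt, and their part in other differences was not tested.

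No gene was called by limma, beside 7.9% of the genes with a name, among 15 photosynthesis genes (median 0.11), 24 ribosomal proteins (-0.11), 7 metallothioneins (0.04) and 15 folding proteins of the endoplasmic reticulum (-0.26). At an unadjusted p under 0.05, whatever the size of the difference, 1, 6, 3 and 8 of these genes passed by limma and 1, 2, 0 and 2 by the methods' t-test. CAB2R, a chlorophyll-binding protein, had 4906 on both arrays of VSR156 salt against 4636 and 4566 in CSR11 salt (0.09 ± 0.10), and the ribosomal gene RPS21 3388 and 3349 against 3552 and 3699 (-0.11 ± 0.10). Other probe sets of some of them were called: -1.58 for the Rubisco activase gene rca, 1.47 for RPS21 and -1.58 for the metallothionein MT2B. In chlorophyll and carotenoid synthesis 1 of 17 was higher (5.88%, beside 7.9% of the genes with a name). This was PSY3, a phytoene synthase, at 78.2 and 90.5 in VSR156 salt against 19.7 and 32.1 in CSR11 salt (1.27 ± 0.15, adjusted p = 0.000304), with 41.8 to 47.0 on the control arrays. Among 63 CCCH zinc finger and A20/AN1 genes 1 was higher and 2 were lower (4.76%, beside 7.9% of the genes with a name), and none of the 3 was called without each salt array in turn. C3H49 (1.41) was lost without VSR156 salt B (adjusted p = 0.0772) or CSR11 salt B (0.74), C3H59 (-1.07) without VSR156 salt B (-0.68) or CSR11 salt A (-0.96), and C3H3 (-1.21) without VSR156 salt A (adjusted p = 0.109), VSR156 salt B (adjusted p = 0.0702) or CSR11 salt B (-0.59). Of 5 disease resistance genes Pi21 alone was called (20%, beside 7.9% of the genes with a name). It had 1973 and 1803 in VSR156 salt against 1116 and 285 in CSR11 salt (1.71). Another of its probe sets gave 0.52 (adjusted p = 0.202) and was not called. The call of Pi21 was lost without VSR156 salt A, VSR156 salt B or CSR11 salt B (0.75).

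**Figure D5:**
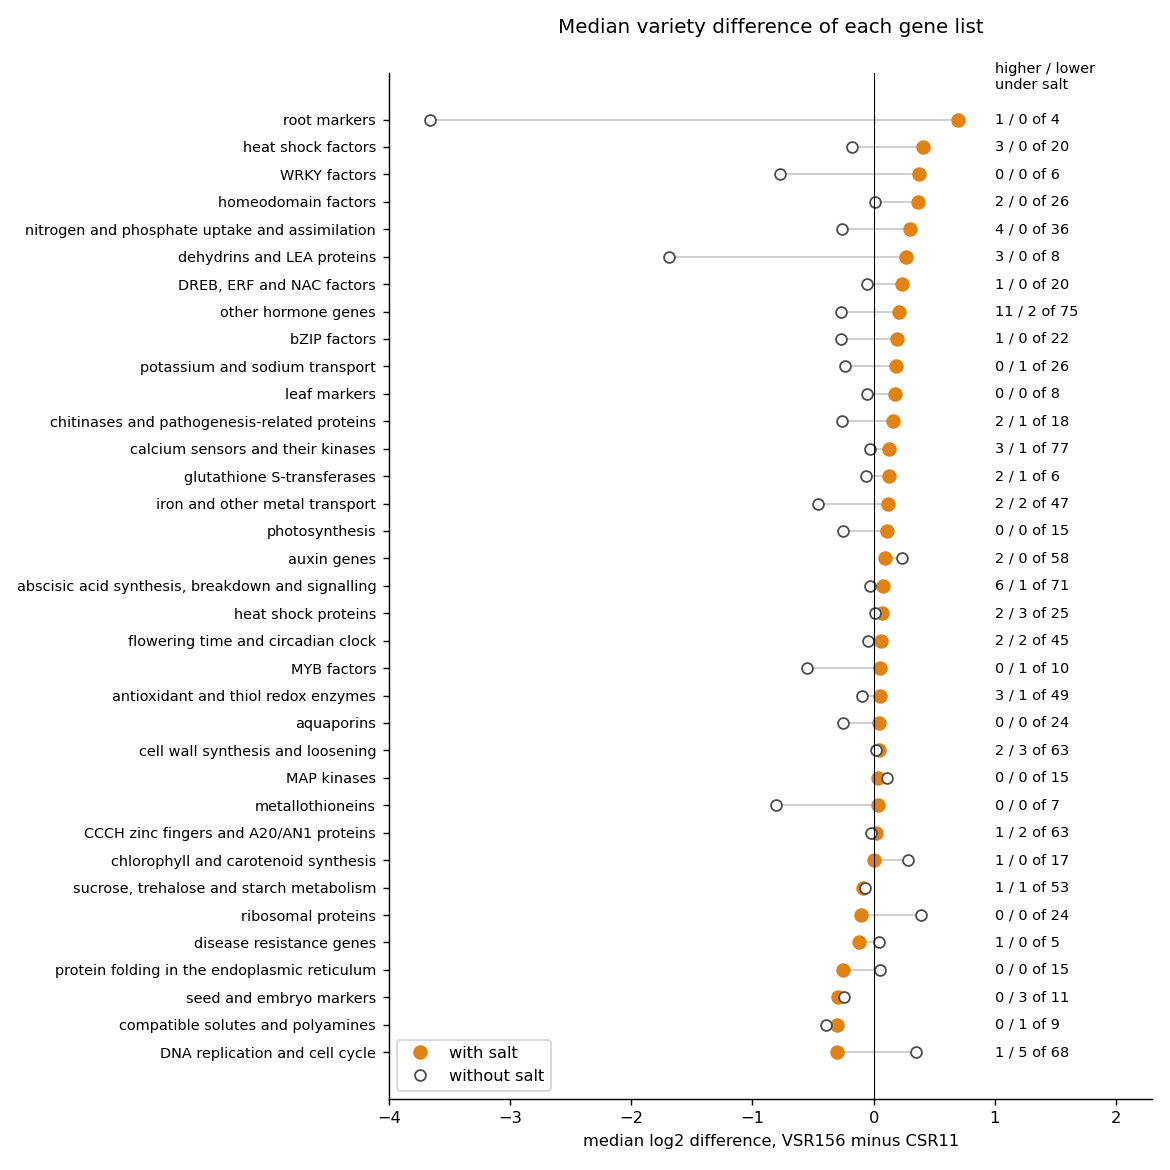
Median log2 difference VSR156 minus CSR11 of each of the 35 gene lists, with salt (filled) and without (open), and the number of genes called higher and lower under salt. With salt the medians lie between -0.30 (DNA replication and cell cycle) and 0.69 (root markers), and without salt between -3.66 (root markers) and 0.39 (ribosomal proteins).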

How the data were processed

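The authors deposited 1 intensity per probe set and array on a linear scale. Per the submitters' processing notes the intensities were made with GCOS 1.0, whereas the methods name RMA. Their levels differ among arrays and no detection calls came with them. The 187 control probe sets were removed and the other 57194 quantile-normalized over 16 arrays, and 16 was added before log2. One linear model with 8 group means was fitted with limma 3.58.1 in R 4.3.3 (residual degrees of freedom 8, prior 2.943), with Benjamini-Hochberg adjustment over all probe sets. The pooled spread makes errors too small for CSR11 salt, whose arrays differed by an SD of 0.443 log2 units, against 0.291 in VSR156 salt and at most 0.236 in other groups. The number of arrays limits the precision.

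The annotation gives exactly 1 gene for 22436 probe sets, and 2457 genes a name. The brightest probe set stands for its gene. Named genes are the 12 largest differences in each direction with at least 100 on both arrays of the higher group, up to 4 called genes (or the 2 brightest) of each of 35 lists, and leaf and root markers. The members and lists were chosen with earlier results of these data known, and 19 symbols or genes that stand for other proteins were removed from lists after values were seen. The code was tested on simulated data. Alternatives covered scaling, pseudocount, dim probe sets, arrays fitted, weights, a replicate block, the methods' t-test and each array left out. Deviations of arrays with the same letter correlated at r between -0.0435 and 0.0745, so that the letters do not pair arrays. No sequences were used here. Python 3.11.15 with pandas 2.3.3 wrote the tables, and matplotlib 3.10.9 the plots.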

Additional observations from a re-analysis of the deposited data

Results flagged for a closer look

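The variety difference (VSR156 minus CSR11) was compared between salt and control arrays, and 53 of the 102 named genes differed between the conditions by limma's test of the difference itself (adjusted p under 0.05, which 9.04% of all probe sets passed). Of the 2457 genes with a name, each at its brightest probe set, 296 were called higher and 265 lower in that test. The values are the difference with salt minus that without. Genes were chosen partly for large differences under salt, and root marker sums and 3' to 5' ratios moved with the groups, as given above. Their part was not tested.

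Among PP2C, LEA and calcium genes the difference was higher with salt for PP2C59 (2.97), PP2C30 (2.0), Dhn1 (3.08), EM (2.15), rab25 (1.72), CML16 (3.15), CML31 (3.14) and CML15 (1.86). It was also higher for the hormone genes JAZ11 (2.83), LOX2.1 (2.79), EIL1 (1.67) and IAA2 (2.44). Regulators in the same direction were NAC048 (1.99), HOX24 (1.85), HOX1 (1.76), wrky38 (2.33), TGAL4 (2.97), HSFC1B (2.18) and PHR3 (2.62). The transporters and root markers IRT1 (6.08), YSL15 (4.78), Lsi2 (4.04), NIP2-1 (3.61), NRAMP5 (2.67), AMT1-2 (2.95) and AMT2-2 (1.32) moved likewise. So did the defence, redox and wall genes PBZ1 (2.47), GRXS2 (2.58), CYP71Z7 (1.98), EXPB18 (2.67), PSY3 (1.37), HSP18.0 (0.85) and GST1 (0.84). For Cht2 (1.38) and MADS56 (0.98) the positive value means that VSR156 was less far below CSR11 with salt than without, on the brightest probe set. Other probe sets of Cht2 gave 1.64 and -0.60 without salt and 3.62 and 0.06 with it. For HSP18.0 the other probe sets gave -1.47 and -0.90, neither called.

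The difference was lower with salt for the replication and cycle genes MCM3 (-2.66), CYCA2-1 (-2.13), MCM6 (-1.98) and RFC2 (-1.22). It was also lower for SPO11-4 (-2.66), BGLU8 (-2.47), OrysaZxb (-1.93), CSLC9 (-1.86), MADS2 (-1.56), GST-I (-1.24), ADC2 (-1.23), C3H59 (-1.14) and SPL15 (-0.90). The seed genes GLUA-1 (-1.45) and GLUB-5 (-1.07) and the bright genes MT2B (-0.96), RPL39B (-0.58) and the calreticulin gene CRO1 (-0.51) complete the genes with a lower difference.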

How the results depend on the processing

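The counts of calls under salt (1525 higher and 1177 lower in VSR156) depended on the processing. They were 1309 and 1328 with trimmed mean scaling, 565 and 257 with median scaling, 44 and 2 with the values as deposited, 690 and 497 with the 8 arrays of the salt experiment alone, 555 and 338 with pseudocount 64 and 750 and 481 with array weights. The 4 salt arrays alone gave 16 and 13 (1294 and 1029 at an unadjusted p under 0.05), and the methods' t-test gave 423 and 373 unadjusted and 0 and 0 after Benjamini-Hochberg, so that few or no probe sets could be called from the spread of the salt arrays themselves. Without each salt array in turn the counts ranged from 1154 to 3783 higher and from 1018 to 3964 lower, the highest without CSR11 salt A, and 1 array then stands for its group and is assumed to vary like the others. Without salt (1209 and 1616) the counts were 724 and 973 with the salt experiment alone, 504 and 770 with pseudocount 64, 788 and 934 with the t-test and 0 and 0 after adjustment, and the lower calls 774 with median scaling and 65 as deposited. Leaving out control arrays gave 978 to 1386 higher and 1277 to 1678 lower, and leaving out CSR11 salt A or B gave 1304 and 1727 each. The difference of differences (2510 and 2661) was called for 470 and 496 with median scaling, 9 and 256 as deposited, 573 and 399 with the salt experiment alone, 975 and 656 with pseudocount 1 and 1207 and 930 with array weights. Without single arrays it ranged from 1389 to 5938 higher and from 1267 to 7531 lower, the lowest without VSR156 control A and the highest without CSR11 salt A. A replicate block gave 1479 and 1155 under salt, 1192 and 1606 without and 2182 and 2207 for the difference of differences. Of the 83 named genes called under salt, 82 kept their call and direction with the replicate block, 73 with trimmed mean scaling and 64 with pseudocount 1. The number was 51 with the salt experiment alone, 50 with array weights, 47 with pseudocount 64 and 33 with median scaling. The methods' t-test kept 31 unadjusted and 0 after Benjamini-Hochberg, the 4 salt arrays alone kept 1 and the values as deposited 2. GLN1-3 alone changed direction, to -0.0565 as deposited; the cause was not tested. Of the medians of 35 lists under salt, 5 changed sign with trimmed mean scaling, 1 (ribosomal proteins) with median scaling and 22 as deposited. Dim arrays limit all of these values: 7.36% and 4.31% of probe sets in VSR156 salt, against 18.1% and 1.36% in CSR11 salt, exceeded an intensity of 100 as deposited.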

Other observations

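A block of probe sets with no gene in the annotation was bright in CSR11 salt and in no other group. It was noticed after the values were seen. Asked for at least 100 on both arrays of a group and under 50 on all 14 other arrays, 16 probe sets were found for CSR11 salt. Between 0 and 18 were found for each of the other 7 groups. Of these 16, 11 carry numbers between 22955 and 23092 in the array's naming, a stretch of 65 probe sets of which 34 have exactly 1 gene, whereas none of the 11 has one. Their normalized intensity was 0.161 to 14.4 in VSR156 salt against 129 to 1720 in CSR11 salt, and 3.75 to 43.8 in VSR156 control against at most 11.2 in CSR11 control. It was at most 10.5 in IR64 and Vandana. Their differences under salt, which the choice of probe sets fixed to be negative, lay between -6.22 and -2.98 (median -4.03). What these probe sets detect was not determined here.

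Exactly 1 gene was given for 4 of the 16 probe sets of CSR11 salt, 14 of 18 of VSR156 salt, 3 of 11 of VSR156 control, 5 of 9 of CSR11 control, 3 of 9 of IR64 drought, 3 of 16 of IR64 control and 6 of 16 of Vandana control, so that a low share was not particular to CSR11 salt.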
